A study of Mus musculus with 20 samples.

Results

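The genes of G1 and S phase examined here are 43 genes that carry a mammalian cell from growth factor stimulation into DNA replication. They were chosen by name, with earlier results of these data known, as the rows of the deposited count table that bear those names. An excess of calls over that of all genes may in part reflect that choice. All 43 were found among the 29986 genes of the table and among the 14420 that passed the filter on low counts and were tested. Their roles place 5 among the D cyclins and their kinases, 4 with the E cyclins, 5 among the E2F transcription factors, 10 in origin licensing, 6 in origin firing, 9 in DNA synthesis and 4 in deoxynucleotide supply. The cells were tenocytes, the fibroblast-like cells of tendon, prepared from the tails of adult wild type C57Bl/6 mice. Messenger RNA was sequenced from 4 libraries without added IGF1 (0 h) and from 4 libraries at each of 1, 2, 6 and 24 h of recombinant insulin-like growth factor 1 (IGF1) at 100 ng/mL. The comparisons ask how transcript levels changed with the length of IGF1 treatment. The labels do not say whether replicates were separate mice or separate dishes, so p-values and errors may measure technical spread. Cells left untreated for 1 to 24 h were not analysed here, so IGF1 and elapsed time cannot be told apart.

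Growth factors act in G1, the phase before DNA replication, largely by raising cyclin D, which activates the kinases Cdk4 and Cdk6. These kinases and cyclin E with Cdk2 phosphorylate the retinoblastoma protein and release E2F transcription factors, which switch on genes for replication. Origins are first licensed in G1, when the origin recognition complex, Cdc6 and Cdt1 load the Mcm2 to Mcm7 helicase onto DNA, and are then fired in S phase by Cdk2 and by the kinase Cdc7 with its partner Dbf4. Tendon cells of adult animals divide rarely, and IGF1 is a known stimulus of their growth and matrix synthesis.

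Total counts ran from 13734425 to 22687173 per library. Levels are CPM, counts scaled to a common library size with TMM, a normalization for library composition. They are given for replicates 1 to 4 in that order or as mean ± SD (n = 4). A fold change is given as log2 ± SE relative to 0 h, or to another time where one is named. Calls use an adjusted p under 0.05 (Benjamini-Hochberg over all 14420 genes) in edgeR's quasi-likelihood test. The tendon markers Scx (1550 to 5700 CPM), Tnmd (149 to 284) and Col1a1 (18000 to 35000) were high in every library. Of 12 tested macrophage markers 11 rose at 2 h, and their list, led by Lyz2, summed to 275 to 347 CPM at 0 h and to 414 to 1090 CPM at 2 h, with 599 and 1090 in replicates 1 and 2. At 24 h the same sum was 203 to 365 CPM. The 3 tested genes of the 7 endothelial markers, mostly Tek, summed to 7.27 to 41.9 CPM over all libraries. Untested Tie1 was at 0 in 15 of 20 libraries and reached 4.65 CPM. Untested Pecam1 and Cdh5 reached 7.96 and 9.77 CPM. The 3 tested genes of the 7 skeletal muscle markers summed to 1.57 to 10.6 CPM, and untested Pax7 was at 0 in 19 libraries. The tested Schwann cell markers, mostly Ncam1, summed to 62.5 to 139 CPM and the tested pericyte markers to 27.9 to 65.1 CPM. In 2 h replicate 2 the mean log2 CPM was 2.76 for endothelial, 2.91 for Schwann cell and 2.47 for pericyte markers. The other libraries reached at most 1.83, 2.01 and 1.88 in that order. In bulk RNA, a change in the share of cycling cells and a change in RNA per cell cannot be told apart.

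IGF1 was followed by a broad rise of these transcripts at 6 and 24 h that was not seen at 1 and 2 h. At 1 h 4 of the 43 genes had risen and 1 had fallen, against 10.6% of all tested genes called (6.75% higher and 3.88% lower). At 2 h 11 had risen and 3 had fallen, against 37.7% of all tested genes called (20.2% higher and 17.5% lower), so the share of G1 and S phase genes called at 1 and 2 h was close to that of all genes. At 6 h 30 had risen and 1 had fallen where 20.6% of all tested genes were called higher and 19.6% lower (40.2% in all). At 24 h 37 had risen and none had fallen where 12.7% of all tested genes were called higher and 13.2% lower (26% in all). The count of genes lower at 24 h was also 0 at an unadjusted p under 0.05 in edgeR and 0 with DESeq2. The same shares of all tested genes apply to the counts by role given below. The median log2 fold change of the 43 was -0.01, 0.08, 0.49 and 0.72 at the 4 treated times in order. The median over all tested genes lay between -0.01 and 0.00. Over the 5 times 42 of the 43 changed, against 63.7% of all tested genes. The exception was the flap endonuclease gene Fen1 (adjusted p = 0.766), which stood at 0.598 ± 0.308 CPM at 0 h. Only 5 to 20 reads per library were counted for Fen1. Of its exonic bases 78.8% are shared with a gene model on the opposite strand, so a change of Fen1 may have been missed.

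**Figure D1:**
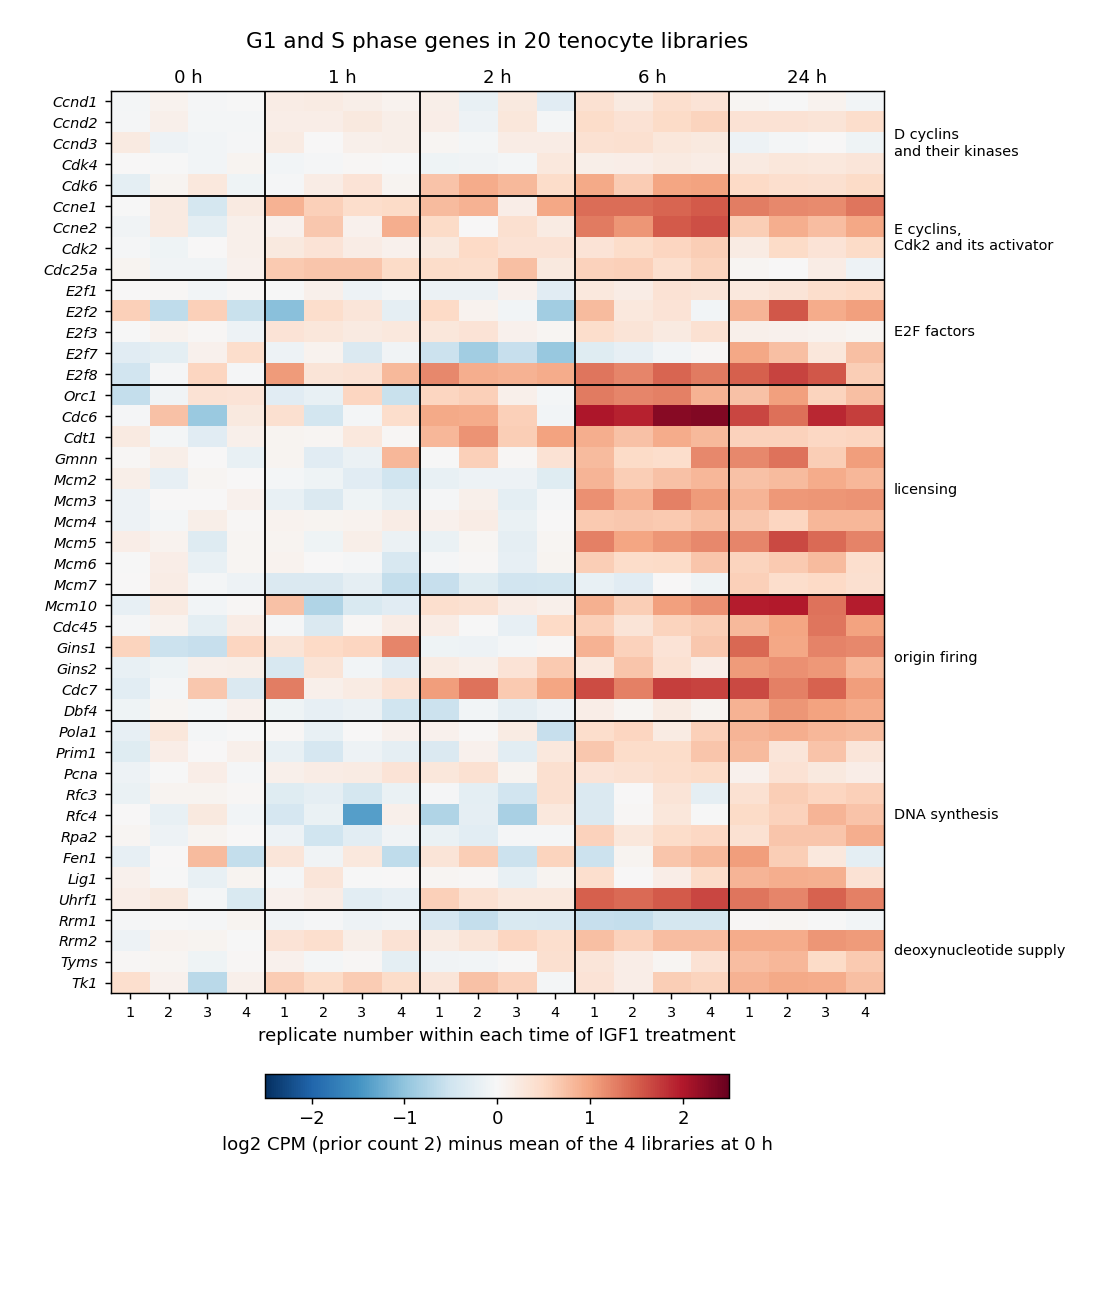
Log2 CPM (prior count 2) of the 43 genes in each of the 20 libraries, minus the mean of the 4 libraries at 0 h; columns are replicates 1 to 4 of each time and rows are grouped by role. Most rows turn red at 6 h and 24 h, Mcm7, Rrm1 and E2f7 are blue at 2 h, and Rrm1 returns to its 0 h level at 24 h.

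The time of the highest mean was compared by role. Of the 9 D and E cyclin, kinase and Cdc25a genes, 7 had their highest mean at 6 h, 1 at 1 h (Cdc25a) and 1 at 24 h (Cdk4). In licensing 1 gene was highest at 2 h (Cdt1), 3 at 6 h and 6 at 24 h. In origin firing 5 of 6, in DNA synthesis 6 of 9 and in deoxynucleotide supply 3 of 4 were highest at 24 h. Over all 43 genes, 15 had their highest mean at 6 h and 25 at 24 h, and Rrm1 alone was highest at 0 h. These counts rank means and were not tested.

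The promoters of 36 of the 43 genes were searched for the letters of E2F sites and of the E-box. The E-box is the site bound by Myc among other factors. These genes have 45 promoters in the RefSeq table for GRCm38.p6 (the mm10 build). Each promoter runs from 250 bases before to 50 bases after a RefSeq transcription start. E2F sites were written as TTTCCCGC, TTTCGCGC, TTTGCCGC or TTTGGCGC on either strand, and 2 of these can share letters, as in the runs of 12 capitals below. They were found in 16 of 45 promoters of the G1 and S phase genes (35.6%), in 2.26% of all 32851 promoters and in 3.71% of the 13716 promoters of tested genes. By role they stood in 7 of 8 licensing genes with a promoter, 3 of 5 E2F genes, 2 of 3 of the E cyclin group, 4 of 9 DNA synthesis genes and none of the 3 D cyclin and kinase, 4 origin firing or 4 deoxynucleotide genes. The E-box CACGTG was in 6 of 45 (13.3%), against 7.15% of all promoters and 9.74% of those of tested genes. A match shows only that the letters are present. Of the genes with E2F letters, Mcm7, Rfc3, Lig1, E2f2 and E2f7 were not called at 6 h (log2 -0.14, -0.04, 0.28, 0.29 and -0.17). The other genes with E2F letters were called higher at 6 h. Genes of roles with no E2F letters in any promoter searched were also called higher at 6 h. These were 5 of 5 D cyclin and kinase, 3 of 6 origin firing and 1 of 4 deoxynucleotide genes. Over all 43 genes 30 were called higher at 6 h. Whether the letters go with the rise was not tested. The windows below are genes whose transcripts rose at 6 h or, for E2f7, fell at 2 h and rose at 24 h, all outside GENCODE exons, with E2F letters in capitals:
Cdc6 (chr11:98907987-98908046, plus strand): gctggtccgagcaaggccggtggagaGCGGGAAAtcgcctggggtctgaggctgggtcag
Mcm5 (chr8:75109330-75109393, plus strand): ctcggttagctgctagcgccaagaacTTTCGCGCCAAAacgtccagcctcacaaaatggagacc
Mcm6 (chr1:128359778-128359841, minus strand): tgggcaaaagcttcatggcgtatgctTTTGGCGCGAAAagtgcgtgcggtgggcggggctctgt
Mcm6 (chr1:128359719-128359778, minus strand): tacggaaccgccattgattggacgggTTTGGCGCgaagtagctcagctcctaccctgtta
Uhrf1 (chr17:56304102-56304161, plus strand): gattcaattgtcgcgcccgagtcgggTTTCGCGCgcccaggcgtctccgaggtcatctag
Pola1 (chrX:93632260-93632319, minus strand): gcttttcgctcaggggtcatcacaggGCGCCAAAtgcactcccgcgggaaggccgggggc
Cdc25a (chr9:109875486-109875545, plus strand): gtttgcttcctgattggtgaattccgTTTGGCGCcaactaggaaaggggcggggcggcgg
E2f7 (chr10:110745215-110745274, plus strand): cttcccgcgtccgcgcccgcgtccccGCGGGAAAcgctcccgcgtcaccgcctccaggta
E2f3 (chr13:29986064-29986100, minus strand): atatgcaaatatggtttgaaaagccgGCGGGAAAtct

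The first capital stands 138 bases before the RefSeq start of Cdc6, 153 before that of Mcm5, 110 and 47 before that of Mcm6, 185 before that of Uhrf1, 138 before that of Pola1, 67 before that of Cdc25a, 198 before that of E2f7 and 11 before that of E2f3. In GENCODE M21, annotated on the same build, the windows of Cdc6 and Uhrf1 lie in introns of longer transcripts and the others lie upstream of the gene. The promoter of Cdk4 holds 4 E-boxes, of which the middle pair, with the first capital 118 bases before the start, is shown because no other promoter of the 36 genes holds more than 1:
Cdk4 (chr10:127063391-127063468, plus strand): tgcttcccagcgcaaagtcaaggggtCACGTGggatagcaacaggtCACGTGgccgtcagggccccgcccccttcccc

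All 43 are annotated as protein-coding genes in GENCODE M21. Cyclin D1 (Ccnd1) spans bases 144929931 to 144939925 of chromosome 7 (minus strand), and cyclin E1 (Ccne1) spans bases 38097984 to 38107534 of chromosome 7 (minus strand). Cdc6 spans bases 98907801 to 98923940 of chromosome 11 (plus strand). Mcm5 spans bases 75109569 to 75128439 of chromosome 8 (plus strand), and Mcm7 spans bases 138164583 to 138172422 of chromosome 5 (minus strand). Uhrf1 spans bases 56303321 to 56323486 of chromosome 17 (plus strand). Rrm1 spans bases 102441695 to 102469771 of chromosome 7 (plus strand), and Rrm2 spans bases 24708241 to 24714146 of chromosome 12 (plus strand).

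The D cyclins and their kinases rose at 6 h and the cyclins mostly returned by 24 h. All 5 genes were called higher at 6 h (median 0.34), 3 were higher at 24 h and 1 was higher at 2 h. Cyclin D1 and cyclin D2 were abundant before treatment, at 64.1 ± 2.65 and 46.2 ± 3.03 CPM per kb of exonic bases, and cyclin D3 stood at 5.95 ± 0.690 CPM per kb. The 4 libraries at 0 h of each of the 3 genes did not overlap with those of the others on that scale.

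Ccnd1 stood at 292, 319.6, 294 and 301 CPM in the libraries at 0 h, 344, 349, 332 and 319.8 at 1 h, and 333, 266, 357 and 247 at 2 h. At 6 h Ccnd1 measured 392, 352, 403 and 384 CPM, and at 24 h 310.0, 301, 319 and 289.5 CPM. The 2 h libraries were spread widely and spanned the 0 h level. Ccnd1 rose by 0.34 ± 0.081 at 6 h (adjusted p = 0.00119) with all 4 libraries above those at 0 h, and at 24 h the difference from 0 h was 0.01 ± 0.081 (adjusted p = 0.927). Ccnd2 stood at 423, 477, 419 and 418 CPM in the libraries at 0 h, 489, 486, 514 and 481 at 1 h, and 488, 397, 531 and 419 at 2 h. At 6 h Ccnd2 measured 596, 559, 605 and 641 CPM, and at 24 h 559, 554, 543 and 585 CPM. The libraries at 6 h and 24 h lay above every 0 h library, and Ccnd2 rose by 0.47 ± 0.072 at 6 h and 0.37 ± 0.072 at 24 h. Ccnd3 stood at 61.1, 47.6, 49.3 and 50.9 CPM in the libraries at 0 h, 59.7, 52.2, 56.8 and 57.8 at 1 h, and 53.7, 50.1, 59.5 and 59.5 at 2 h. At 6 h Ccnd3 measured 68.1, 68.5, 63.2 and 61.9 CPM, and at 24 h 47.4, 50.1, 52.5 and 48 CPM. It rose by 0.32 ± 0.076 at 6 h, and at 24 h it was -0.08 ± 0.077 from 0 h (adjusted p = 0.506). From 6 h to 24 h Ccnd1 and Ccnd3 fell, by 0.33 ± 0.081 and 0.40 ± 0.076, and Ccnd2 differed by -0.10 ± 0.071 (adjusted p = 0.303). At 1 h the differences of Ccnd1 (0.16 ± 0.081) and Ccnd2 (0.18 ± 0.072) did not pass (adjusted p = 0.259 and 0.113), although all 4 libraries at 1 h lay above those at 0 h for both. In a fit of the 8 libraries alone both passed (adjusted p = 0.0286 and 0.0122).

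Cdk6, a kinase partner of the D cyclins, had the largest change of the group. Cdk6 stood at 15.1, 18.7, 21.4 and 16.6 CPM in the libraries at 0 h, 17.4, 20.2, 22.6 and 18.7 at 1 h, and 29, 34.2, 31.3 and 24.4 at 2 h. At 6 h Cdk6 measured 34.5, 27.6, 35.5 and 35.6 CPM, and at 24 h 25, 23.9, 23.6 and 24.7 CPM. It rose by 0.73 ± 0.11 at 2 h, 0.90 ± 0.11 at 6 h and 0.44 ± 0.11 at 24 h, with no overlap with 0 h at those times, and fell by 0.46 ± 0.11 from 6 h to 24 h. Cdk4, the other kinase, moved from 241 ± 9.35 CPM at 0 h to 272 ± 7.40 at 6 h and 289 ± 7.24 at 24 h. Its rise of 0.27 ± 0.064 at 24 h passed (adjusted p = 0.00257), and that of 0.18 ± 0.064 at 6 h passed narrowly (adjusted p = 0.0277) and was lost without 0 h replicate 2 or 3 or 6 h replicate 2, 3 or 4 (adjusted p = 0.0501 to 0.0832). Ccnd1 shares 23.4% of its exonic bases with Lto1, on the opposite strand, and Cdk4 19.7% with Tspan31, and the use of strand in counting is not given, so reads in those parts cannot be assigned. Lto1 (listed as Oraov1) differed by -0.07 at 6 h (adjusted p = 0.578). Tspan31 differed by 0.14 at 6 h (adjusted p = 0.133) and rose by 0.31 at 24 h (adjusted p = 0.00158).

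**Figure D2:**
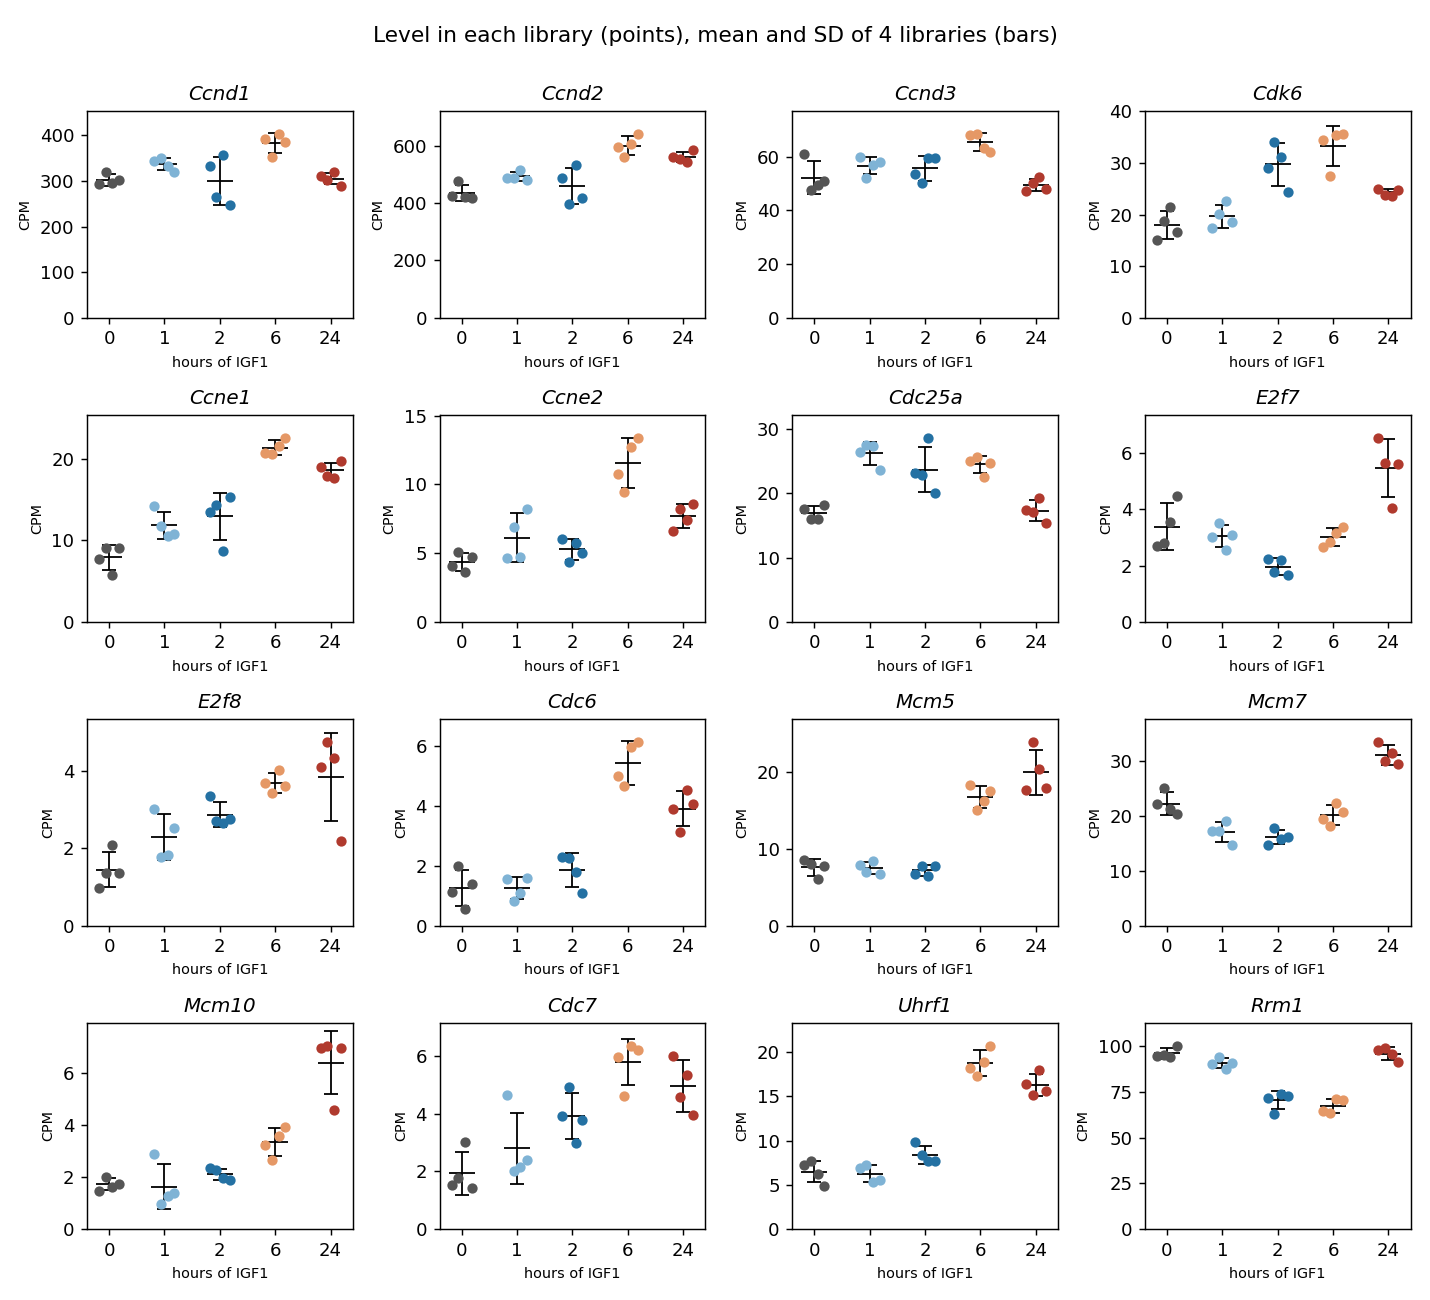
CPM of 16 of the genes against hours of IGF1, with each of the 4 libraries as a point and the mean and SD as bars; the y axis starts at 0 and differs between panels. Ccnd1, Ccnd3 and Cdk6 peak at 6 h, Cdc25a rises by 1 h and is back near its 0 h level at 24 h, Cdc6, Mcm5 and Uhrf1 step up between 2 h and 6 h, Mcm10 is highest at 24 h, and Rrm1 dips at 2 h and 6 h.

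Among the E cyclins, Cdk2 and its activator, changes began at 1 h. Of the 4 genes, 2 had risen at 1 h, 3 at 2 h, 4 at 6 h (median 0.97) and 3 at 24 h. Cyclin E, made by Ccne1 and Ccne2, activates Cdk2 at the end of G1. Ccne1 stood at 7.74, 9.09, 5.74 and 9.04 CPM in the libraries at 0 h, 14.3, 11.8, 10.5 and 10.8 at 1 h, and 13.4, 14.3, 8.69 and 15.3 at 2 h. At 6 h Ccne1 measured 20.8, 20.6, 21.6 and 22.6 CPM, and at 24 h 19, 17.9, 17.7 and 19.8 CPM. Every library at 1, 6 and 24 h lay above those at 0 h, and only replicate 3 at 2 h fell within their range. Ccne1 rose by 0.58 ± 0.15 at 1 h (adjusted p = 0.00821), 0.71 ± 0.14 at 2 h, 1.43 ± 0.14 at 6 h (adjusted p = 5.97e-09) and 1.23 ± 0.14 at 24 h. Ccne2 stood at 4.03, 5.08, 3.61 and 4.69 CPM in the libraries at 0 h, 4.64, 6.91, 4.68 and 8.22 at 1 h, and 6.03, 4.33, 5.76 and 4.99 at 2 h. At 6 h Ccne2 measured 10.8, 9.42, 12.7 and 13.4 CPM, and at 24 h 6.63, 8.20, 7.43 and 8.59 CPM. Its rise was 1.41 ± 0.17 at 6 h, with a fall of 0.59 ± 0.17 from 6 h to 24 h (adjusted p = 0.00735) that left it 0.82 ± 0.18 above 0 h. The 1 h difference of Ccne2 (0.48 ± 0.18) did not pass (adjusted p = 0.0894) except in fits without 1 h replicate 1 or 3 (adjusted p = 0.0408 to 0.044). Of the exonic bases of Ccne2, 17.4% are shared with Ints8 on the opposite strand, which itself changed by 0.34 at 6 h (adjusted p = 0.000721) and by 0.24 at 24 h.

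Cdc25a, the phosphatase that removes inhibitory phosphates from Cdk2, had already risen at 1 h and was the only one of the 43 whose mean was highest at 1 h. Cdc25a stood at 17.6, 15.9, 16 and 18.2 CPM in the libraries at 0 h, 26.5, 27.5, 27.4 and 23.7 at 1 h, and 23.2, 22.9, 28.7 and 20.1 at 2 h. At 6 h Cdc25a measured 25.1, 25.6, 22.5 and 24.8 CPM, and at 24 h 17.4, 17.1, 19.3 and 15.4 CPM. All 12 libraries from 1 h to 6 h lay above the 4 at 0 h, and the 24 h libraries overlapped with them. The rise was 0.63 ± 0.096 at 1 h (adjusted p = 2.78e-05), 0.49 ± 0.096 at 2 h and 0.53 ± 0.096 at 6 h, and Cdc25a then fell by 0.50 ± 0.097 between 6 h and 24 h (adjusted p = 0.000191). Cdk2 itself moved from 17.5 ± 1.17 CPM at 0 h to 22.7 ± 1.70 at 2 h and 24.6 ± 1.92 at 6 h, and was called higher at 2 h (0.37 ± 0.088), 6 h (0.49 ± 0.088) and 24 h (0.38 ± 0.089). Its 2 h call was lost with the level of macrophage markers as a term (0.32, adjusted p = 0.0501).

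The E2F factors comprise activators (E2f1, E2f2 and E2f3) and the atypical repressors E2f7 and E2f8, which are themselves known E2F targets. Of the 5 genes, 1 was called higher at 1 h, 2 were higher and 1 was lower at 2 h, 3 were higher at 6 h and 4 were higher at 24 h. E2f1 rose only modestly, from 24.1 ± 0.678 CPM at 0 h to 29.4 ± 1.62 at 6 h (0.29 ± 0.084) and 31.5 ± 2.37 at 24 h (0.39 ± 0.084). E2f3 moved from 32.5 ± 2.08 CPM to 39.4 ± 1.38 at 1 h (0.28 ± 0.073) and 41.2 ± 2.60 at 6 h (0.35 ± 0.072), and was 0.09 ± 0.073 from 0 h at 24 h (adjusted p = 0.434). The 1 h call of E2f3 (adjusted p = 0.0103) was lost without 0 h replicate 4 (adjusted p = 0.0514). At 2 h E2f3 was called (0.20 ± 0.073, adjusted p = 0.0315) but lost the call without 0 h replicate 1 or 4 or 2 h replicate 1 or 2 (adjusted p = 0.0559 to 0.142) and with 2 h replicates 1 and 2 left out together (0.07, adjusted p = 0.524). With the level of macrophage markers as a term E2f3 was not called at 2 h either (0.17, adjusted p = 0.244).

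E2f8 had the largest E2F change and E2f7 changed in both directions. E2f8 stood at 0.973, 1.37, 2.08 and 1.37 CPM in the libraries at 0 h, 3.03, 1.78, 1.83 and 2.53 at 1 h, and 3.35, 2.72, 2.65 and 2.75 at 2 h. At 6 h E2f8 measured 3.70, 3.43, 4.03 and 3.62 CPM, and at 24 h 4.12, 4.77, 4.35 and 2.19 CPM. It rose by 0.99 ± 0.25 at 2 h, 1.36 ± 0.24 at 6 h and 1.42 ± 0.25 at 24 h with no overlap with 0 h, and by 0.66 ± 0.25 at 1 h, which did not pass (adjusted p = 0.101) except without 0 h replicate 3 (adjusted p = 0.0369). E2f7 stood at 2.69, 2.79, 3.55 and 4.50 CPM in the libraries at 0 h, 3.03, 3.51, 2.57 and 3.10 at 1 h, and 2.25, 1.76, 2.19 and 1.66 at 2 h. At 6 h E2f7 measured 2.66, 2.85, 3.17 and 3.36 CPM, and at 24 h 6.56, 5.67, 4.06 and 5.62 CPM. All 4 libraries at 2 h lay below those at 0 h, a fall of 0.78 ± 0.20 (adjusted p = 0.00339), and E2f7 rose by 0.69 ± 0.19 at 24 h (adjusted p = 0.00761), where 1 library overlapped with the 0 h range. With the level of macrophage markers as a term in the fit the 2 h fall was 0.68 and did not pass (adjusted p = 0.0761). E2f2 stood at 0.973, 0.355, 0.983 and 0.379 CPM in the libraries at 0 h, 0.238, 0.864, 0.779 and 0.506 at 1 h, and 0.909, 0.654, 0.576 and 0.287 at 2 h. At 6 h E2f2 measured 1.13, 0.756, 0.807 and 0.577 CPM, and at 24 h 1.19, 1.99, 1.26 and 1.36 CPM. E2f2 stayed under 2 CPM in every library, and its call at 24 h (1.10 ± 0.40, adjusted p = 0.044) was lost without 0 h replicate 2 or 4, 6 h replicate 2 or 3 or 24 h replicate 2, 3 or 4 (adjusted p = 0.0508 to 0.148). Per kb of exonic bases at 0 h the order was E2f1 (7.64 ± 0.215 CPM per kb), E2f3 (5.98 ± 0.384), E2f7 (0.375 ± 0.0929), E2f8 (0.266 ± 0.0840) and E2f2 (0.138 ± 0.0721), and the libraries of E2f7 and E2f8 and those of E2f8 and E2f2 overlapped. E2f8 shares 11.2% of its exonic bases with the transcript model Gm2788 on the opposite strand.

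Licensing genes rose mostly between 2 h and 6 h. Of the 10 genes, 1 was called higher and 1 lower at 2 h, 9 were higher at 6 h (median 0.82) and all 10 were higher at 24 h (median 0.80). In the comparison of 6 h with 2 h, 8 of 10 rose, where 13.6% of all tested genes were called higher and 13.7% lower (27.4% in all). Mcm7 was among the 8 (0.32, adjusted p = 0.0118), from a 2 h level below that at 0 h. At 6 h Mcm7 differed from 0 h by -0.14. Its call against 2 h was lost without 6 h replicate 3 (adjusted p = 0.0517) and with the level of macrophage markers as a term (adjusted p = 0.139). From 6 h to 24 h, 1 rose (Mcm7) and 1 fell (Cdt1), where 17.6% of all tested genes were called higher and 18.2% lower (35.8% in all).

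Cdc6, the ATPase that with Cdt1 loads the helicase at origins, had the largest rise of the 43 genes. Cdc6 stood at 1.11, 1.98, 0.546 and 1.37 CPM in the libraries at 0 h, 1.55, 0.806, 1.10 and 1.58 at 1 h, and 2.30, 2.26, 1.78 and 1.09 at 2 h. At 6 h Cdc6 measured 4.98, 4.65, 5.97 and 6.14 CPM, and at 24 h 3.91, 3.14, 4.52 and 4.07 CPM. Every library at 6 h and 24 h exceeded every library at 0 h, with a rise of 2.11 ± 0.27 at 6 h (adjusted p = 5.72e-07) and 1.63 ± 0.28 at 24 h. At 2 h the difference was 0.57 ± 0.29 (adjusted p = 0.127), and it passed without 0 h replicate 2 or 2 h replicate 4 (adjusted p = 0.0294 to 0.0376). Its E2F window is printed above. Orc1 stood at 0.788, 1.17, 1.64 and 1.61 CPM in the libraries at 0 h, 1.01, 1.09, 1.88 and 0.822 at 1 h, and 1.87, 1.96, 1.38 and 1.20 at 2 h. At 6 h Orc1 measured 3.25, 3.08, 3.17 and 2.36 CPM, and at 24 h 2.16, 2.65, 1.89 and 2.19 CPM. Orc1, the largest subunit of the origin recognition complex, rose by 1.19 ± 0.27 at 6 h (adjusted p = 0.000689) with no overlap, and its call at 24 h (0.78 ± 0.27, adjusted p = 0.0368) was lost without 0 h replicate 1 or 2 or 24 h replicate 1, 2 or 4 (adjusted p = 0.056 to 0.134). Orc1 shares 10.8% of its exonic bases with Gm12743 on the opposite strand.

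Cdt1, the loading partner of Cdc6, was already higher at 2 h. Cdt1 stood at 10.3, 8.53, 7.32 and 9.66 CPM in the libraries at 0 h, 9.33, 9.21, 10.7 and 9.11 at 1 h, and 15.8, 19.6, 13.8 and 18 at 2 h. At 6 h Cdt1 measured 16.7, 14.8, 17.1 and 15.7 CPM, and at 24 h 13.3, 13.2, 12.7 and 12.9 CPM. All libraries at 2, 6 and 24 h lay above those at 0 h. The rise was 0.90 ± 0.11 at 2 h (adjusted p = 4.56e-07), 0.84 ± 0.11 at 6 h and 0.54 ± 0.12 at 24 h, so that Cdt1 was the only licensing gene called higher at 2 h. A fall of 0.30 ± 0.11 from 6 h to 24 h (adjusted p = 0.0366) was lost without 6 h replicate 1, 3 or 4 or 24 h replicate 1, 2, 3 or 4 (adjusted p = 0.0585 to 0.103). Geminin (Gmnn), the inhibitor that binds Cdt1 in S and G2 phase, had its highest mean at 24 h and stood at 1.67, 1.83, 1.64 and 1.42 CPM at 0 h, 1.63, 2.52, 1.67 and 2.12 at 2 h, 2.91, 2.33, 2.26 and 3.88 at 6 h and 3.91, 4.34, 2.57 and 3.49 at 24 h. Gmnn rose by 0.80 ± 0.26 at 6 h, a call lost without 6 h replicate 4 (adjusted p = 0.0794), and by 1.12 ± 0.26 at 24 h (adjusted p = 0.00143). The ratio of Cdt1 to Gmnn CPM, chosen with these values seen and given as a description, was 6.19, 4.67, 4.47 and 6.80 at 0 h, 9.74, 7.78, 8.24 and 8.46 at 2 h and 3.41, 3.04, 4.93 and 3.70 at 24 h. The ratio was above every 0 h library in all 4 libraries at 2 h. It overlapped with the 0 h libraries at 1 h, at 6 h (5.73, 6.35, 7.57 and 4.05) and at 24 h.

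The 6 helicase subunits Mcm2 to Mcm7 form a ring with 1 copy of each, and the log2 fold changes of their transcripts at 6 h ranged from -0.14 to 1.14. At 6 h Mcm5 rose by 1.14 ± 0.12, Mcm3 by 1.10 ± 0.099, Mcm2 by 0.76 ± 0.093, Mcm4 by 0.68 ± 0.085 and Mcm6 by 0.56 ± 0.10, while Mcm7 differed by -0.14 ± 0.092 (adjusted p = 0.236). At 24 h the rises of Mcm2, Mcm3, Mcm4, Mcm5 and Mcm6 were 0.82 ± 0.094, 1.06 ± 0.1, 0.72 ± 0.086, 1.40 ± 0.12 and 0.61 ± 0.10. Mcm5 stood at 8.48, 8.02, 6.01 and 7.81 CPM in the libraries at 0 h, 7.90, 6.97, 8.39 and 6.77 at 1 h, and 6.70, 7.80, 6.45 and 7.75 at 2 h. At 6 h Mcm5 measured 18.2, 15, 16.2 and 17.5 CPM, and at 24 h 17.6, 23.9, 20.4 and 17.9 CPM. The libraries at 0, 1 and 2 h covered the same range, and those at 6 h and 24 h lay well above it (adjusted p = 2.14e-08 at 6 h and 8.9e-10 at 24 h). Mcm7 stood at 22.3, 25.1, 21.4 and 20.4 CPM in the libraries at 0 h, 17.2, 17.3, 19.1 and 14.7 at 1 h, and 14.8, 17.9, 15.9 and 16.2 at 2 h. At 6 h Mcm7 measured 19.5, 18.2, 22.4 and 20.7 CPM, and at 24 h 33.6, 30.04, 31.6 and 29.5 CPM. Mcm7 fell by 0.38 ± 0.093 at 1 h (adjusted p = 0.00615) and by 0.46 ± 0.093 at 2 h (adjusted p = 0.000301), with no overlap with 0 h, and rose by 0.48 ± 0.091 at 24 h (adjusted p = 0.000181). The ratio of Mcm5 to Mcm7 CPM was 0.380, 0.319, 0.281 and 0.383 at 0 h, 0.459, 0.403, 0.44 and 0.461 at 1 h and 0.453, 0.435, 0.406 and 0.479 at 2 h. It was 0.934, 0.824, 0.722 and 0.845 at 6 h and 0.525, 0.797, 0.645 and 0.608 at 24 h, without overlap of any treated time with 0 h. That pair was chosen with the values seen and its ratio was not tested.

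Per kb of exonic bases, Mcm4 was the most abundant subunit transcript at 0 h (5.98 ± 0.490 CPM per kb), followed by Mcm7 (5.04 ± 0.461), Mcm6 (4.65 ± 0.470), Mcm3 (3.25 ± 0.229), Mcm2 (2.45 ± 0.242) and Mcm5 (1.90 ± 0.268). Neighbours in this order overlapped between libraries for Mcm4 with Mcm7 and for Mcm7 with Mcm6, and did not for Mcm6 with Mcm3 or Mcm3 with Mcm2. Mcm2 and Mcm5 met at the edge of their ranges, at 2.12 CPM per kb. At 6 h Mcm7 (4.56 ± 0.407 CPM per kb) was near Mcm5 (4.19 ± 0.358) and Mcm2 (4.14 ± 0.298), with Mcm4 highest (9.57 ± 0.292). The lengths are the union of all GENCODE exons of a gene, so a seldom used long exon would lower a value. Mcm7 shares 7.25% of its exonic bases with Ap4m1 on the opposite strand, which changed by -0.44 at 2 h (adjusted p = 0.00347), and a 2157-base stretch at 97.7% identity with the pseudogene Gm5487, so part of its reads may be assigned elsewhere.

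**Figure D3:**
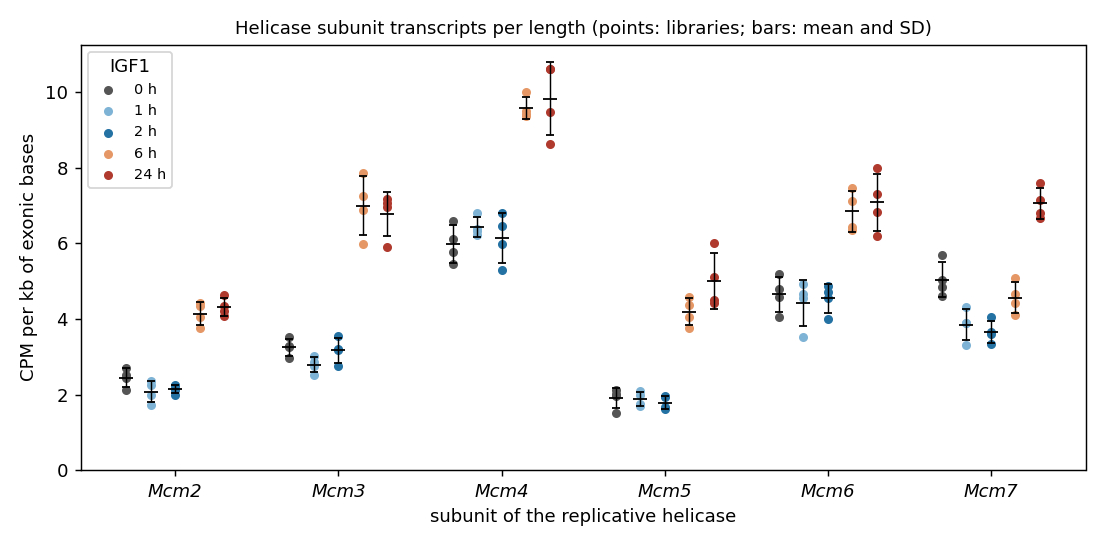
CPM per kb of exonic bases of the 6 helicase subunits, with the libraries of each time as points (left to right 0, 1, 2, 6 and 24 h) and the mean and SD as bars. Mcm2, Mcm3, Mcm4, Mcm5 and Mcm6 step up at 6 h, and Mcm7 is lower at 1 h and 2 h than at 0 h and is above 0 h only at 24 h.

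Every gene of origin firing was higher at 24 h than at 0 h, and some had risen by 6 h. Of the 6 genes, 1 was called higher at 2 h (Cdc7), 3 at 6 h (Mcm10, Cdc45 and Cdc7, median of the 6 0.55) and all 6 at 24 h (median 1.13). From 6 h to 24 h Mcm10, Cdc45, Gins2 and Dbf4 rose, and Cdc7 differed by -0.22 (adjusted p = 0.502). The call of Cdc45 in that step (adjusted p = 0.0149) was lost without 6 h replicate 2 or 24 h replicate 3 (adjusted p = 0.0525 to 0.0782). It was also lost with no filter on low counts (adjusted p = 0.0518). Mcm10, which helps to activate the loaded helicase, rose most. Mcm10 stood at 1.48, 2.03, 1.64 and 1.75 CPM in the libraries at 0 h, 2.91, 0.979, 1.28 and 1.39 at 1 h, and 2.34, 2.26, 1.96 and 1.89 at 2 h. At 6 h Mcm10 measured 3.25, 2.68, 3.60 and 3.94 CPM, and at 24 h 6.97, 7.06, 4.57 and 6.97 CPM. The 24 h libraries exceeded all others, and the rise was 0.96 ± 0.25 at 6 h (adjusted p = 0.00242) and 1.88 ± 0.24 at 24 h (adjusted p = 7.84e-07). Cdc45, a subunit of the active helicase, went from 3.29 ± 0.435 CPM at 0 h to 6.87 ± 1.10 at 24 h (1.06 ± 0.17), and its 6 h rise of 0.53 ± 0.17 was lost without 0 h replicate 3 (adjusted p = 0.0573). Gins1 stood at 1.20, 0.508, 0.492 and 1.18 CPM in the libraries at 0 h, 1.01, 1.15, 1.19 and 1.96 at 1 h, and 0.718, 0.704, 0.748 and 0.803 at 2 h. At 6 h Gins1 measured 1.53, 1.22, 1.02 and 1.31 CPM, and at 24 h 2.30, 1.63, 2 and 1.94 CPM. Gins1, like Gins2 a part of the GINS complex of the helicase, rose by 1.19 ± 0.31 at 24 h (adjusted p = 0.00531) from 0.847 ± 0.401 CPM. Gins2 was 1.04 ± 0.16 at 24 h, but 67.3% of its exonic bases are shared with Gse1 on the opposite strand, which rose by 1.43 at 1 h (adjusted p = 0.000569) and 1.35 at 2 h and differed by 0.37 at 24 h (adjusted p = 0.329), so the level of Gins2 is uncertain. The 6 h difference of Gins2 (0.39 ± 0.17, adjusted p = 0.0654) passed without 1 h replicate 2, 2 h replicate 4 or 6 h replicate 4 (adjusted p = 0.0452 to 0.0483).

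The kinase Cdc7 and its activating subunit Dbf4, which phosphorylate the loaded helicase together, were first called at different times, Cdc7 at 2 h and Dbf4 at 24 h. That difference in timing was not tested. Cdc7 stood at 1.53, 1.78, 3 and 1.42 CPM in the libraries at 0 h, 4.64, 2.02, 2.15 and 2.40 at 1 h, and 3.92, 4.93, 2.99 and 3.79 at 2 h. At 6 h Cdc7 measured 5.97, 4.59, 6.35 and 6.19 CPM, and at 24 h 6, 4.58, 5.32 and 3.94 CPM. Cdc7 rose by 1.03 ± 0.26 at 2 h (adjusted p = 0.0022), where replicate 3 lay just below the highest library at 0 h, by 1.59 ± 0.25 at 6 h and by 1.37 ± 0.25 at 24 h. Dbf4 stood at 13.5, 15, 14.1 and 15.7 CPM in the libraries at 0 h, 13.5, 12.7, 13.1 and 10.3 at 1 h, and 9.95, 13.8, 12.4 and 13.3 at 2 h. At 6 h Dbf4 measured 16.4, 15.1, 16.7 and 15.2 CPM, and at 24 h 26.6, 31.6, 29.2 and 27.6 CPM. Dbf4 was -0.23 ± 0.10 at 1 h, -0.24 ± 0.10 at 2 h and 0.12 ± 0.10 at 6 h, none of which passed (adjusted p = 0.18, 0.0735 and 0.36), and rose by 0.98 ± 0.10 at 24 h (adjusted p = 1.64e-08). The 2 h difference of Dbf4 passed as a fall without 2 h replicate 2 or 4 (adjusted p = 0.0343 to 0.0431). As a description, the ratio of Dbf4 to Cdc7 CPM was 8.82, 8.43, 4.69 and 11 at 0 h and 2.54, 2.81, 4.13 and 3.52 at 2 h. It was 2.75, 3.29, 2.63 and 2.46 at 6 h and 4.44, 6.88, 5.49 and 7.02 at 24 h. All 4 libraries at 2 h and at 6 h lay below those at 0 h, and those at 1 h and 24 h overlapped with 0 h.

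Genes of DNA synthesis were split between a 6 h and a 24 h rise. Of the 9 genes, 2 were called higher at 2 h, 5 at 6 h (median 0.41) and 8 at 24 h (median 0.67). Uhrf1, which recruits the maintenance DNA methyltransferase to newly copied DNA, changed most. Uhrf1 stood at 7.23, 7.67, 6.23 and 4.92 CPM in the libraries at 0 h, 6.89, 7.31, 5.36 and 5.57 at 1 h, and 9.81, 8.35, 7.71 and 7.69 at 2 h. At 6 h Uhrf1 measured 18.2, 17.3, 18.8 and 20.7 CPM, and at 24 h 16.4, 15.1, 18 and 15.6 CPM. The step came between 2 h and 6 h, with a rise of 1.53 ± 0.13 at 6 h (adjusted p = 2.94e-10) and 1.32 ± 0.13 at 24 h and no overlap with 0 h. The 2 h rise of Uhrf1 (0.37 ± 0.13, adjusted p = 0.0305) was lost without 0 h replicate 3 or 4 or 2 h replicate 1 (adjusted p = 0.0677 to 0.139) and with 2 h replicates 1 and 2 left out together (adjusted p = 0.27). Pola1 stood at 5.70, 8.02, 6.34 and 6.53 CPM in the libraries at 0 h, 6.72, 5.82, 6.60 and 7.09 at 1 h, and 7.13, 6.74, 7.66 and 4.36 at 2 h. At 6 h Pola1 measured 8.93, 9.60, 7.58 and 10.1 CPM, and at 24 h 11.9, 12.4, 11.9 and 11.5 CPM. Pola1, the catalytic subunit of the polymerase that makes primers, rose by 0.84 ± 0.14 at 24 h with no overlap, and its 6 h rise of 0.44 ± 0.14 was lost without 0 h replicate 1 or 6 h replicate 4 (adjusted p = 0.0519 to 0.059). Lig1 stood at 11.5, 10.6, 9.29 and 11.2 CPM in the libraries at 0 h, 10.4, 13.1, 10.5 and 10.7 at 1 h, and 10.9, 10.8, 9.27 and 11.1 at 2 h. At 6 h Lig1 measured 14.3, 10.6, 11.9 and 14.7 CPM, and at 24 h 19.3, 20.03, 19.6 and 13.7 CPM. Lig1, the ligase that joins Okazaki fragments, rose by 0.77 ± 0.12 at 24 h (adjusted p = 2.89e-05), and its 6 h difference (0.28 ± 0.13, adjusted p = 0.0822) passed without 6 h replicate 2 or 24 h replicate 4 (adjusted p = 0.0345 to 0.0492). Uhrf1 matches the pseudogene Gm5648 over 1590 bases at 98.3% identity.

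Prim1, the primase that works with Pola1, went from 5.48 ± 0.773 CPM at 0 h to 8.13 ± 0.742 at 6 h (0.57 ± 0.16) and 8.01 ± 1.45 at 24 h (0.55 ± 0.16), the second of which was lost without 0 h replicate 1 (adjusted p = 0.0505). Rpa2, a subunit of the single-strand binding complex, rose by 0.47 ± 0.12 at 6 h and 0.68 ± 0.12 at 24 h. Pcna, the sliding clamp, rose by 0.29 ± 0.08 at 2 h and 0.41 ± 0.08 at 6 h from 31 ± 2.64 CPM. The 2 h call of Pcna was lost with 2 h replicates 1 and 2 left out together (adjusted p = 0.0607) and with the level of macrophage markers as a term (adjusted p = 0.236). At 24 h Pcna was at the threshold (0.22 ± 0.081, adjusted p = 0.0467) and lost the call without 0 h replicate 1, 2 or 4, 1 h replicate 2 or 3, 2 h replicate 1, 6 h replicate 1, 2, 3 or 4 or 24 h replicate 2, 3 or 4 (adjusted p = 0.0521 to 0.175). Rfc3 and Rfc4, subunits of the loader that places the clamp, were not called before 24 h, when Rfc3 rose by 0.54 ± 0.15 (adjusted p = 0.0103) and Rfc4 by 0.67 ± 0.24 (adjusted p = 0.0386). The call of Rfc4 was lost without 0 h replicate 1, 2 or 4 or 24 h replicate 2, 3 or 4 (adjusted p = 0.0585 to 0.108). Fen1, which removes RNA primers, stood at 0.463, 0.558, 1.04 and 0.331 CPM at 0 h and 1.26, 0.905, 0.686 and 0.452 at 24 h (0.47 ± 0.44, adjusted p = 0.485). Of its exonic bases 78.8% are shared with the antisense model Gm10143, so the level of Fen1, like that of Gins2, is uncertain. Pcna matches the pseudogene Pcna-ps2 over 781 bases at 99.2% identity, and Rfc4 shares 12.7% of its exonic bases with Eif4a2 on the opposite strand.

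In deoxynucleotide supply, the large subunit of ribonucleotide reductase fell while the small subunit rose. This enzyme makes deoxynucleotides and consists of a large subunit (Rrm1) and a small subunit (Rrm2), of which Rrm2 is known to peak in S phase. Rrm1 stood at 94.3, 94.9, 94 and 100.0 CPM in the libraries at 0 h, 90.2, 94, 87.5 and 90.7 at 1 h, and 71.4, 62.9, 73.5 and 72.8 at 2 h. At 6 h Rrm1 measured 64.4, 63.5, 70.7 and 70.2 CPM, and at 24 h 97.6, 98.8, 95.3 and 91 CPM. Rrm1 fell by 0.45 ± 0.06 at 2 h (adjusted p = 1.06e-06) and by 0.51 ± 0.06 at 6 h (adjusted p = 9.77e-08) with no overlap with 0 h, and its level at 24 h overlapped with that at 0 h (adjusted p = 0.988). It was the only gene of the 43 called lower at 6 h. Rrm2 stood at 24.9, 28.8, 28.5 and 26.9 CPM in the libraries at 0 h, 34.5, 36.5, 30.3 and 35.1 at 1 h, and 31.5, 34.2, 39.7 and 36.4 at 2 h. At 6 h Rrm2 measured 46, 40.8, 46.8 and 46.7 CPM, and at 24 h 51.6, 51.8, 59 and 57.1 CPM. Every library from 1 h on lay above the 0 h libraries, with rises of 0.32 ± 0.081, 0.38 ± 0.081, 0.73 ± 0.081 and 1.01 ± 0.081 at 1, 2, 6 and 24 h (adjusted p = 1.5e-10 at 24 h). The 1 h call (adjusted p = 0.0086) was lost without 0 h replicate 1 (adjusted p = 0.0501). As a description of a pair chosen with its values seen, the ratio of Rrm2 to Rrm1 CPM was 0.264, 0.304, 0.303 and 0.269 at 0 h, 0.382, 0.388, 0.346 and 0.387 at 1 h, 0.441, 0.544, 0.540 and 0.5 at 2 h, 0.714, 0.643, 0.662 and 0.666 at 6 h and 0.529, 0.524, 0.618 and 0.628 at 24 h. No library at a treated time overlapped with 0 h. These ratios do not account for transcript length. Per kb of exonic bases Rrm2 stood at 9.85 ± 0.653 and Rrm1 at 8.7 ± 0.261 CPM per kb at 0 h, where their libraries overlapped. At 24 h Rrm2 stood at 19.8 ± 1.36 and Rrm1 at 8.69 ± 0.308 CPM per kb.

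The other enzymes of deoxynucleotide supply rose at 24 h. Tyms stood at 9.04, 9.09, 8.19 and 8.95 CPM in the libraries at 0 h, 9.45, 8.46, 8.98 and 7.40 at 1 h, and 8.23, 8.45, 8.81 and 11.6 at 2 h. At 6 h Tyms measured 10.8, 9.83, 9.14 and 11.3 CPM, and at 24 h 15.1, 15.8, 12.4 and 13.9 CPM. Tyms, which makes thymidylate, rose by 0.69 ± 0.12 at 24 h with no overlap with 0 h, and by 0.47 ± 0.12 over the 6 h level (adjusted p = 0.00266). Tk1 stood at 7.04, 5.63, 3.22 and 5.73 CPM in the libraries at 0 h, 8.20, 7.31, 8.11 and 7.21 at 1 h, and 6.46, 8.70, 7.77 and 5.05 at 2 h. At 6 h Tk1 measured 6.61, 5.87, 8.01 and 7.66 CPM, and at 24 h 9.63, 10.2, 10.1 and 8.84 CPM. Tk1, the salvage kinase for thymidine, rose by 0.83 ± 0.18 at 24 h (adjusted p = 0.000685). Its differences at 1 h (0.51 ± 0.18), 2 h (0.37 ± 0.18) and 6 h (0.37 ± 0.18) did not pass (adjusted p = 0.0678, 0.107 and 0.0954). They passed at 1 h without 0 h replicate 1 or 2 h replicate 4 (adjusted p = 0.0263 to 0.0352), at 2 h without 0 h replicate 1 or 2 h replicate 4 (adjusted p = 0.0245 to 0.0318) and at 6 h without 0 h replicate 1 (adjusted p = 0.0276). All 4 genes of this group were called higher at 24 h than at 6 h, and Tk1 lost that call without 6 h replicate 1 or 2 or 24 h replicate 1, 2 or 3 (adjusted p = 0.0645 to 0.121).

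**Figure D4:**
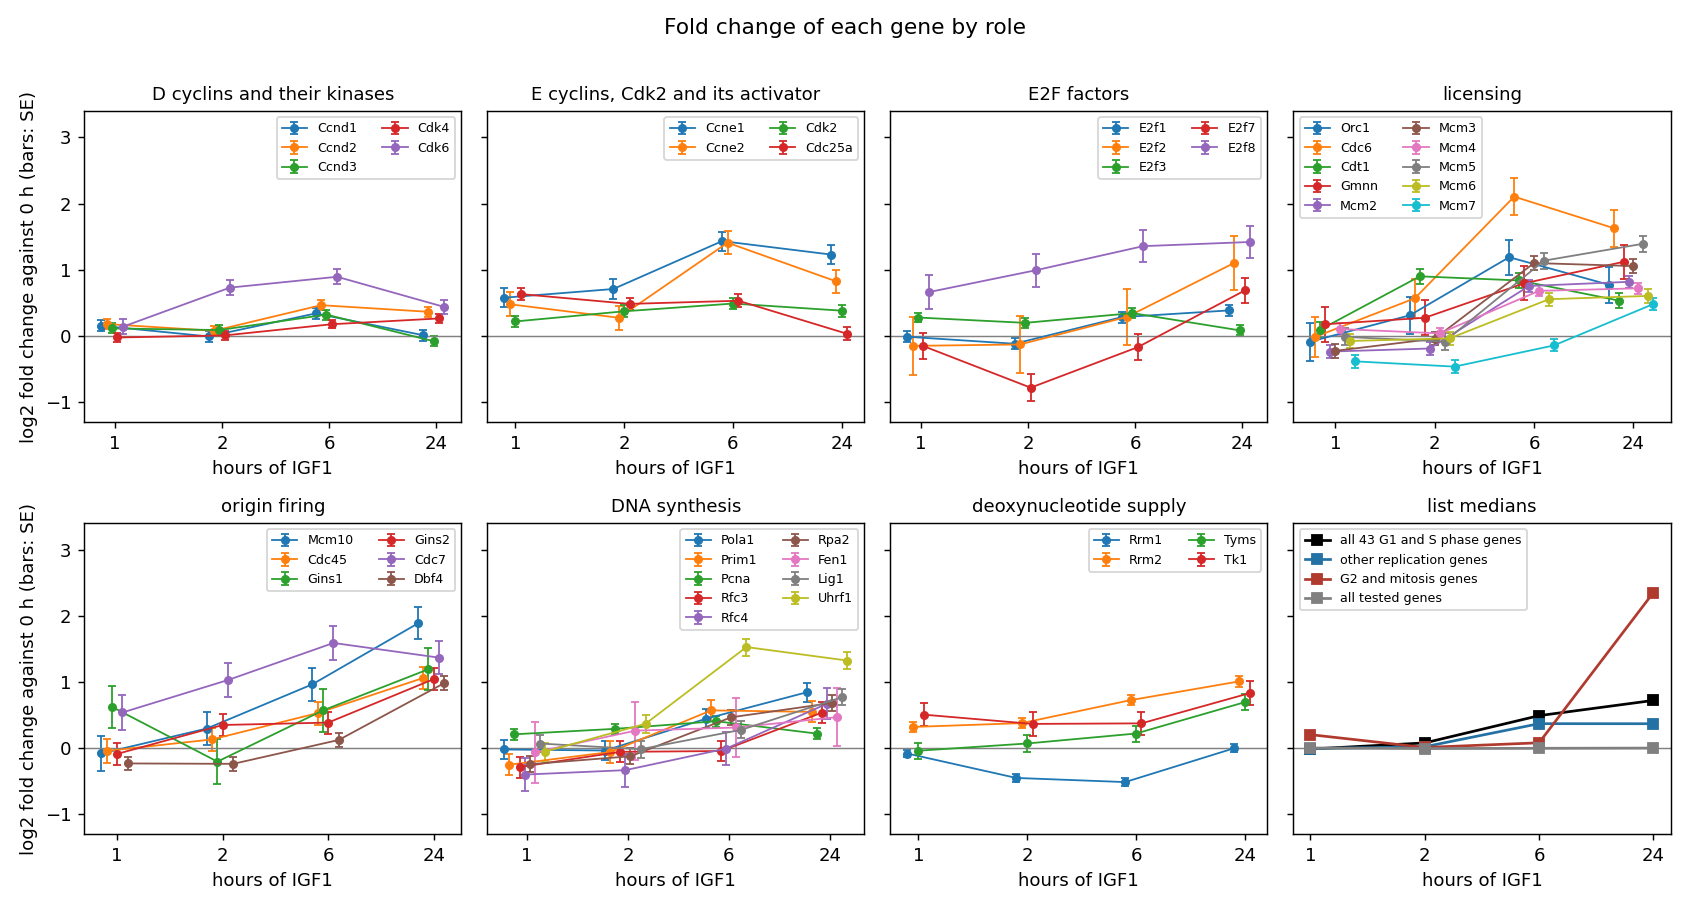
Log2 fold change against 0 h (points, with SE bars) at 1, 2, 6 and 24 h, evenly spaced, for the genes of each role; the last panel gives the median of the 43 genes, of 55 other replication genes, of 16 genes of G2 phase and mitosis and of all tested genes. The median of the G2 and mitosis genes is 0.08 at 6 h and 2.35 at 24 h, and that of the 43 genes is 0.49 at 6 h and 0.72 at 24 h.

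From step to step, 3 of the 43 genes rose and 2 fell between 1 h and 2 h, where 7.5% of all tested genes were called higher and 8.84% lower (16.3% in all). Cdt1 (0.80 ± 0.11), Cdk6 (0.59 ± 0.11) and Uhrf1 (0.42 ± 0.14) rose and Rrm1 (-0.37 ± 0.06) and E2f7 (-0.63 ± 0.21) fell. Uhrf1 lost this call without 1 h replicate 3 or 4 or 2 h replicate 1 (adjusted p = 0.0852 to 0.113), and E2f7 without 1 h replicate 1, 2 or 4 or 2 h replicate 2 or 4 (adjusted p = 0.0626 to 0.107) and with the macrophage term (adjusted p = 0.195). The count of 5 between 1 h and 2 h was 3 without 1 h replicate 4. Between 2 h and 6 h 22 rose and none fell in edgeR's test, with 0 falling at an unadjusted p under 0.05 and 0 with DESeq2. Over all tested genes 13.6% were called higher and 13.7% lower in that step. The largest rises were those of Cdc6 (1.54 ± 0.26), Mcm5 (1.22 ± 0.12), Uhrf1 (1.16 ± 0.13), Mcm3 (1.14 ± 0.1) and Ccne2 (1.13 ± 0.17). With the level of macrophage markers as a term, this count was 14, and it was 20 with 2 h replicates 1 and 2 left out. Between 6 h and 24 h 14 rose and 7 fell, where 17.6% of all tested genes were called higher and 18.2% lower, so the share of the 43 that fell was near that of all genes. The 7 that fell were Ccnd1, Ccnd3, Cdk6, Ccne2, Cdc25a, E2f3 and Cdt1, and the largest rises were those of Mcm10 (0.92 ± 0.23), Dbf4 (0.86 ± 0.10) and E2f7 (0.86 ± 0.19). At 2 h against 0 h the macrophage term left 8 genes higher and 2 lower, and leaving out 2 h replicates 1 and 2 left 9 higher and 3 lower. At 6 h against 0 h these fits gave 31 higher and 1 lower, and 30 higher and 1 lower.

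A wider list of 55 other replication genes had 1 higher at 1 h, 8 higher and 2 lower at 2 h, 32 higher and 3 lower at 6 h, and 30 higher and 1 lower at 24 h (median 0.37 at 6 h and 0.37 at 24 h). The shares of all tested genes called higher and lower were 6.75% and 3.88% at 1 h and 20.2% and 17.5% at 2 h. They were 20.6% and 19.6% at 6 h and 12.7% and 13.2% at 24 h. Clspn, the checkpoint mediator claspin, rose by 1.24 ± 0.19 at 6 h and 1.86 ± 0.19 at 24 h, and the firing factor gene Ticrr by 1.60 ± 0.33 at 24 h. E2f4, an E2F of resting cells, rose by 0.45 ± 0.076 at 1 h and 0.82 ± 0.075 at 2 h, and Tfdp2, a dimerization partner of E2F proteins, fell by 0.66 ± 0.079 at 2 h and 1.12 ± 0.081 at 6 h.

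Genes of G2 phase and mitosis rose at 24 h. Of 16 such genes, 1 was called higher at 1 h (Plk1), 1 at 2 h (Aurka) and all 16 at 24 h, with a median of 0.08 at 6 h and 2.35 at 24 h. Of all tested genes 6.75% were called higher at 1 h, 20.2% at 2 h and 12.7% at 24 h. Their summed level was 104 to 126 CPM at 6 h, 94.2 to 125 at 0 h and 433 to 532 at 24 h. The mitotic kinase gene Plk1 rose by 2.80 ± 0.16, the cyclin gene Ccnb2 by 2.68 ± 0.16 and Cenpf, a kinetochore protein gene, by 2.64 ± 0.19 at 24 h. Among 10 genes of kinase inhibitors and the retinoblastoma family, 1 was higher and 1 lower at 1 h, and 2 were higher and 3 lower at 2 h. At 6 h 1 was higher and 5 were lower, and at 24 h 3 were higher and 2 lower. Over all tested genes 6.75% were called higher and 3.88% lower at 1 h, and 20.2% and 17.5% at 2 h. These shares were 20.6% and 19.6% at 6 h, and 12.7% and 13.2% at 24 h. Cdkn1b, which encodes the Cdk2 inhibitor p27, fell by 0.77 ± 0.064 at 1 h, 1.01 ± 0.064 at 2 h and 0.47 ± 0.063 at 6 h, and was -0.05 ± 0.063 from 0 h at 24 h (adjusted p = 0.631). Rbl2, the p130 pocket protein gene of resting cells, fell by 0.58 ± 0.086 at 2 h and 1.14 ± 0.089 at 6 h. Rbl1, the p107 gene, rose by 0.63 ± 0.13 at 6 h and 0.73 ± 0.13 at 24 h, and Cdkn1a, the p21 gene, by 0.48 ± 0.056 at 1 h. Of the other kinase inhibitor genes, Cdkn1c rose by 0.64 ± 0.20 at 2 h and fell by 0.84 ± 0.21 at 24 h. Cdkn2d rose by 0.87 ± 0.14 at 24 h. Cdkn2b fell by 0.34 ± 0.099 at 2 h, 0.69 ± 0.0996 at 6 h and 0.38 ± 0.099 at 24 h.

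The authors' deposited table of their own comparisons covers 12207 genes and holds 41 of the 43, all but E2f2 and Fen1. At an adjusted p under 0.05 in the authors' deposited table, 4 of these 41 were higher and 1 lower at 1 h, 11 and 3 at 2 h, 30 and 1 at 6 h, and 36 and 0 at 24 h.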

How the data were processed

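RNA was sequenced from 20 tenocyte libraries, 4 at each of 5 times, and grouped by the labels. The authors deposited raw read counts for 29986 genes. FastQC, STAR, edgeR and mm10 are named in the submitters' processing notes, with no version given. How reads were assigned to genes (tool, annotation, strand) is not given in the sources used here. A second deposited table holds the authors' log2 fold changes, log2 CPM and p-values (raw and adjusted), per the file headers, and was used only to count calls.

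Counts were fitted with edgeR 4.0.16 in R 4.3.3: filterByExpr over the 5 groups (14420 genes, 99.9% of counts), TMM, and 1 robust quasi-likelihood fit of all 20 libraries without covariates. SEs are the log2 fold change over the square root of F. The fit was tested on simulated data. Mitochondrial genes held 1.31% to 1.75% of counts.

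The description of 0 h replicate 2 repeats that of replicate 1. The chi-square between them was 9.28 for each degree of freedom (2.99 to 57.4 over all replicate pairs), more than sampling noise, so both were kept. Pairs of libraries at 2 h gave 9.36 to 57.4, and pairs at the other times gave 2.99 to 10.7. The pairs of 2 h replicate 4 with replicates 1, 2 and 3 gave 42.5, 57.4 and 45.5, so that library stood apart most.

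The 43 genes, the role lists and the marker lists were chosen with earlier results of these data known. Values per library are given for the D cyclins and for up to 3 called genes per role with the largest fold change and a mean of at least 1 CPM. Rrm1, Mcm7, Cdt1, Gmnn, Dbf4 and Fen1 were added after their values were seen. Of the other lists, up to 4 called genes per list and time could be named, and a gene that overlaps one of the 43 is named for that overlap. Promoter sequences are from RefSeq (GRCm38.p6), and positions are from GENCODE M21. Copies were sought at 95% identity or more over at least 500 bases. Alternatives were RLE scaling, no filter, a filter of at least 1 CPM in 4 libraries, DESeq2 1.42.0, a block for the replicate number, fits of 8 libraries, each library left out, 2 h replicates 1 and 2 left out, and the mean log2 CPM of macrophage markers as a term.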

Additional observations from a re-analysis of the deposited data

Results flagged for a closer look

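In 215 sets of 4 libraries (43 genes at 5 times), 15 held a library farther from the nearest of the others than Dixon's 95% limit allows, and chance alone gives about 1 in 20. No cause was tested.

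At 0 h, Ccnd2 stood at 477 CPM in replicate 2 (others 418 to 423), Rfc3 at 7.04 CPM in replicate 1 (others 8.10 to 8.30), Rrm1 at 100.0 CPM in replicate 4 (others 94.0 to 94.9) and Tyms at 8.19 CPM in replicate 3 (others 8.95 to 9.09). At 1 h, Cdt1 stood at 10.7 CPM in replicate 3 (others 9.11 to 9.33), Cdc7 at 4.64 CPM in replicate 1 (others 2.02 to 2.40) and Lig1 at 13.1 CPM in replicate 2 (others 10.4 to 10.7). At 2 h, Cdk4 stood at 287 CPM in replicate 4 (others 224 to 232), E2f8 at 3.35 CPM in replicate 1 (others 2.65 to 2.75) and Tyms at 11.6 CPM in replicate 4 (others 8.23 to 8.81). At 6 h, replicate 2 was low for Cdk6 at 27.6 CPM (others 34.5 to 35.6) and for Rrm2 at 40.8 CPM (others 46.0 to 46.8). At 24 h, Mcm3 stood at 22.1 CPM in replicate 1 (others 26.1 to 26.9), Mcm10 at 4.57 CPM in replicate 3 (others 6.97 to 7.06) and Lig1 at 13.7 CPM in replicate 4 (others 19.3 to 20).

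The calls of Cdk6 at 6 h and of Mcm10 and Lig1 at 24 h against 0 h passed without the library in question. With 1 h replicate 1 left out, Cdc7 rose between 1 h and 2 h (log2 0.84, adjusted p = 0.023 in edgeR's test), which it did not in the fit of all libraries (adjusted p = 0.183). Without 2 h replicate 4, Cdk4 rose between 2 h and 6 h (log2 0.27, adjusted p = 4.14e-05), which it did not in the fit of all libraries (0.17, adjusted p = 0.0508).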

How the results depend on the processing

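No direction of a called gene reversed under any alternative. Of 135 calls of the 43 genes over 7 comparisons, 103 held in all 28 settings and 32 were lost in at least 1, and 29 of 166 pairs not called were called in at least 1. The count for 2 h against 1 h (5) was 3 in the fit of the 8 libraries compared. The count for 6 h against 2 h (22) was 14 with the level of macrophage markers as a term. Without 1 library, counts ranged over 4 to 7 (5 in the fit of all libraries) at 1 h, 12 to 17 (14) at 2 h, 29 to 32 (31) at 6 h and 33 to 37 (37) at 24 h. They ranged over 3 to 6 at 2 h against 1 h, 19 to 23 at 6 h against 2 h, 17 to 22 (21) at 24 h against 6 h, and 41 to 42 at any time. Over all genes, 2 h against 1 h gave 2357 calls, 773 with 8 libraries and 1153 with the macrophage term. At 2 h against 0 h there were 5443 calls and 3156 with that term, and at 6 h against 2 h 3944 calls and 2549 with 8 libraries. Of the fits without 1 library, that without 2 h replicate 4 gave the most calls over all genes in every comparison. At 1 h against 0 h it gave 2162 calls, against 1533 in the fit of all libraries. The causes of these differences were not tested. Replicates at 2 h were spread more widely than those at other times, as for Ccnd1 (SD 52.6 CPM at 2 h and 12.4 at 0 h). The fit of all 20 libraries estimates 1 spread per gene for all times, so its SEs and p-values at 2 h may be too small.

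The labels do not say that a replicate number marks a shared animal or day. Over 40 same-numbered pairs, the correlation of deviations from group means ran from -0.17 to 0.126, and 2 of 20 libraries correlated best with their own number. With the replicate block the fit called 4 genes higher and 1 lower at 1 h, 11 and 3 at 2 h, 30 and 1 at 6 h, 37 and 0 at 24 h, 23 and 0 for 6 h against 2 h, and 13 and 7 for 24 h against 6 h. With that block Tk1 was not called for 24 h against 6 h (0.45, adjusted p = 0.0534) and Cdk4 was called for 6 h against 2 h (0.17, adjusted p = 0.0382), and no other call of the 43 genes changed. Low counts limit the precision of the genes with the fewest reads, with 4 to 33 reads per library for E2f2, 5 to 20 reads per library for Fen1 and 9 to 35 reads per library for Gins1.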
